A study of Mus musculus with 13 samples.

Results

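DNA repair and replication genes were examined in whole-genome sequence of 7 sorted mouse bone marrow populations. The set holds 46 genes, named as components of DNA repair, DNA replication or antigen receptor recombination, of 21631 protein-coding genes in the RefSeq table used here. A single nucleotide variant (SNV), a short insertion or deletion (INDEL) or a copy number call was assigned to a member by the gene name in the deposited table. In all, 680 of 1074723 SNV and INDEL calls carried a member's name.

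The study sequenced GFP+ cells of C57BL/6 mice aged 8 to 10 weeks, with leukemias that carry integrated retroviral N-Myc, and asked which SNVs, INDELs and copy number changes they hold. The B-ALL library came from B220+GFP+ cells, the T-ALL library from CD3+GFP+ cells, the AML library from Mac1+Gr1+GFP+ cells and the AUL library from B220-CD3-Mac1-Gr1-GFP+ cells, each of 2000000 cells. Leukemia labelled MPAL gave 2 fractions of 1000000 cells, and the labels do not say whether both came from 1 mouse. M-MPAL was sorted as GFP+Mac1/Gr1+B220-CD3/4/8-, whereas T-MPAL, with CD3/4/8 in place of the myeloid markers, was GFP+Mac1/Gr1-B220-CD3/4/8+. The library labelled Empty control came from 1000000 GFP+ cells. Each group had 1 library and no replicate, so the comparison of groups has no test, and every interval given is an exact 95% interval that covers counting error only. No matched normal DNA of the same mice is named in the labels, so inherited and acquired calls cannot be told apart. How many mice a library holds is not given in the labels. The identity of the cells rests on the surface markers of the sort, since DNA calls hold no expression of marker genes.

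These genes keep the genome intact by complementary routes. Atr and Chek1 relay replication stress, and Brca1, Bard1, Palb2, Brca2, Rad50, Nbn and the RecQ helicases Blm and Wrn act in the repair of double-strand breaks by homologous recombination. Mismatch repair proteins (Msh3, Msh6, Mlh3, Pms1, Pms2, with the exonuclease Exo1) correct slipped bases in repeat tracts, the polymerases Pole and Pold1 copy and proofread DNA, and Polh, Polq and Rev3l copy past damage or join ends. In lymphoid progenitors Rag1 and Rag2 cut antigen receptor genes, the end joining proteins Xrcc4, Xrcc5, Xrcc6, Prkdc and Lig4 rejoin them, and Dntt adds untemplated bases at the joints.

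The sequences of the INDELs on which the results turn are shown as the reference carries them, from the deposited tables (mm10, plus strand), since nearly all are runs of one short unit. The first 4 are the calls annotated to exons or splice sites, and the last is a well-supported call in the control. Capitals mark the 1 unit that the called allele lacks.
Pole, AML, chr5:110323965-110323977: cTGtgtgtgtgtg
Blm, M-MPAL, chr7:80512904-80512933: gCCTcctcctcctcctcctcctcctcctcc
Fanca, AML, chr8:123300122-123300145: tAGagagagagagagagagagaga
Lig1, all 7 libraries, chr7:13305924-13305929: gCcccc
Bard1, Empty control, chr1:71032928-71032951: gGTgtgtgtgtgtgtgtgtgtgtg

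The 680 calls were 359 distinct alleles, of which 38 were SNVs and 321 were INDELs. By the deposited annotation 348 of these alleles lay in introns, 2 in exons, 2 at splice sites and 7 in 3′ UTRs. All 11 outside introns were INDELs. At least 1 call was found in 37 of the 46 members, against 60.9% of all protein-coding genes. No call carried the name of Msh6, Lig4, Ercc2, Xpc, Mutyh, Tdg, Mbd4, Ogg1 or Rag1. Within the RefSeq spans of 5 members, 44 further calls carry another gene's name and were not counted, 15 in Pms2, 11 in Fancc, 9 in Xrcc6, 8 in Tdg and 1 in Atr. The tables list called sites only, so a site with no call is not shown to be of reference sequence.

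A call was counted as private where its position and allele had at least 10 reads in 1 library and were not called at any depth in the other 6. There were 150 private calls in 34 members, against 51.4% of all protein-coding genes with one, and 16 of the calls were SNVs and 134 INDELs. Members are long genes, with a median span of 39.4 kb against 17.3 kb for all coding genes, and across the 46 members the private count rose with span (Pearson's r 0.87 and Spearman's rho 0.85, a description over genes, which are not replicates). The most private calls were in Xrcc4 (19 calls over 240.7 kb), which holds the ligase of end joining in place, and in Mgmt (16 calls over 233.7 kb), which removes alkyl groups from guanine. Wrn, a RecQ helicase (151.2 kb), and Rev3l, the catalytic subunit of polymerase zeta (143.7 kb), followed with 11 each.

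**Figure D1:**
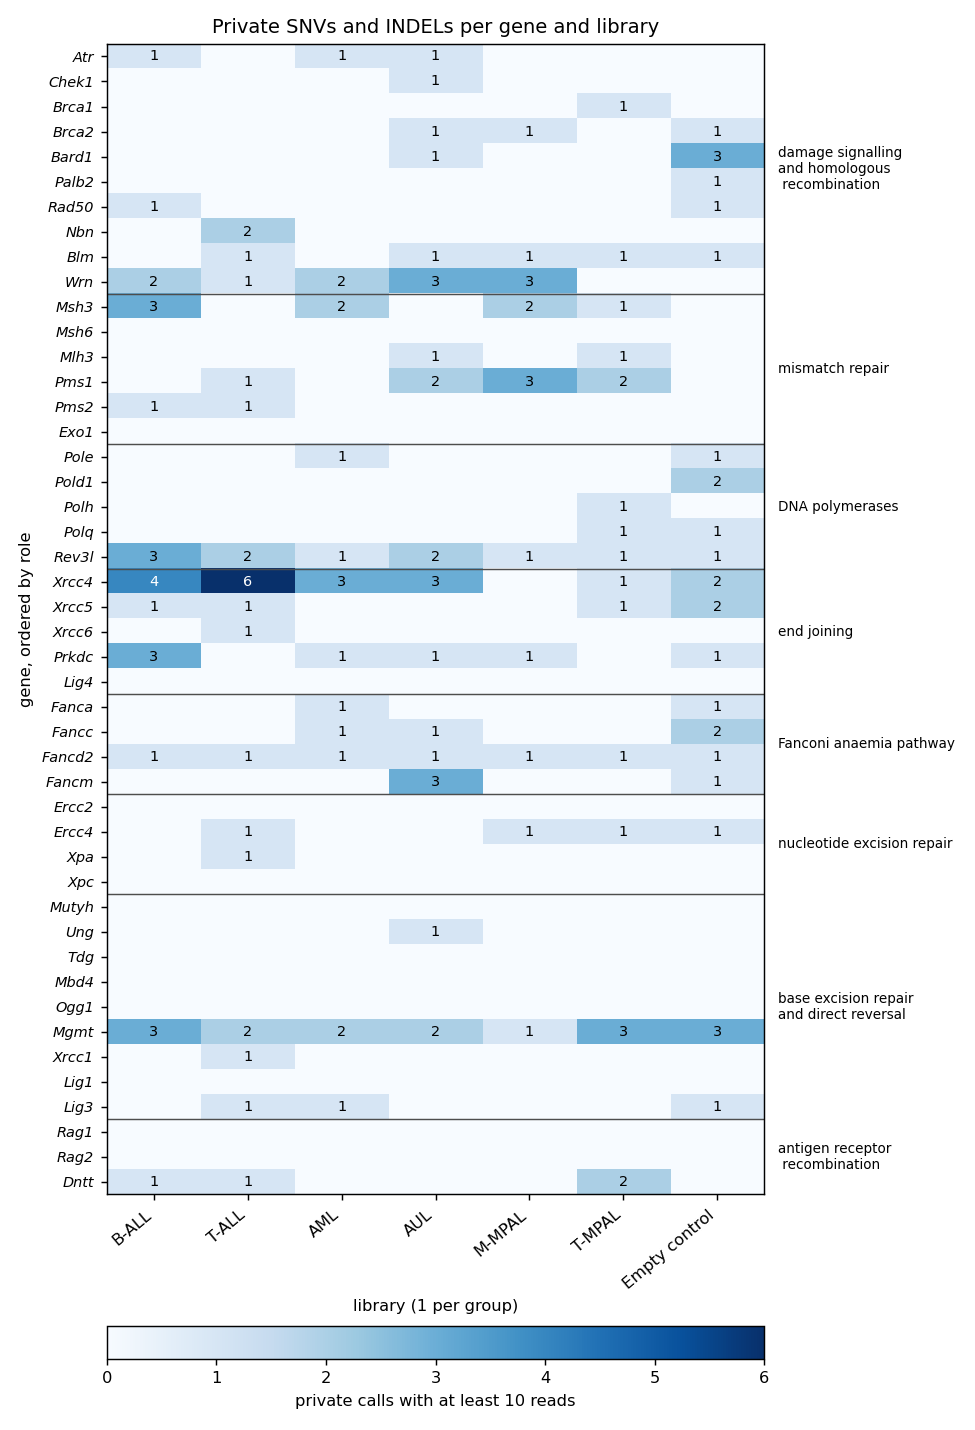
Private SNVs and INDELs with at least 10 reads for each of the 46 genes (rows, ordered by role) in each of the 7 libraries (columns), with the count printed in each cell that is above 0. Calls are spread over all roles and libraries, and the highest cell is Xrcc4 in T-ALL with 6 calls.

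Per 100 kb of gene span the roles lay close together. Damage signalling and homologous recombination genes had 33 private calls (5.07 per 100 kb), mismatch repair 20 (5.04), DNA polymerases 18 (5.52), end joining 32 (5.40) and the Fanconi anaemia pathway 17 (4.58). Nucleotide excision repair had 5 (4.81) and base excision repair with direct reversal 21 (5.52). The 3 antigen receptor recombination genes had 4 (8.11 per 100 kb), all of them in Dntt. Mgmt, Rev3l and Fancd2 had a private call in each of the 7 libraries, and Fancd2, whose product is marked with ubiquitin when crosslinked DNA is repaired, had exactly 1 in each.

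Private SNVs were few in every library. B-ALL had 3 (exact Poisson interval 0.619 to 8.77), T-ALL had 1 (0.0253 to 5.57), AML had 2 (0.242 to 7.22) and AUL had 5 (1.62 to 11.7). M-MPAL had 0 (upper limit 3.69), T-MPAL had 1 (0.0253 to 5.57) and the control had 4 (1.09 to 10.2). AUL had the most and M-MPAL none, and the intervals of all 7 overlap. The members with one numbered 3 in B-ALL against 2.37% of all coding genes, 1 in T-ALL against 3.72%, 2 in AML against 2.37% and 4 in AUL against 6.88%. For M-MPAL the number was 0 against 2.79%, for T-MPAL 1 against 2.04% and for the control 4 against 2.12%.

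Per Mb of gene span, the members had 5.57 private SNVs over all 7 libraries (3.19 to 9.05), and the other coding genes had 6.27 (6.12 to 6.43). The rates in the members and in the other genes were 1.05 and 0.615 per Mb in B-ALL, 0.348 and 1.14 in T-ALL, 0.697 and 0.638 in AML, and 1.74 and 2.03 in AUL. M-MPAL had rates of 0 and 0.769, T-MPAL of 0.348 and 0.558, and the control of 1.39 and 0.518. The rate of the other genes lay inside the members' interval in each of the 7 libraries, so a difference was not detectable at these counts. These counts hold calls under a member's name, while the span also holds calls under other names. By RefSeq span AUL and the control had 6 private SNVs each (2.20 to 13.1), and the other libraries kept their counts. Rates per Mb were not recomputed for the counts by span, so the result holds only for calls assigned by name.

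Of private INDELs B-ALL had 21 (13.0 to 32.1), T-ALL had 23 (14.6 to 34.5), AML had 15 (8.40 to 24.7) and AUL had 20 (12.2 to 30.9). M-MPAL had 15 (8.40 to 24.7), T-MPAL had 17 (9.90 to 27.2) and the control had 23 (14.6 to 34.5). T-ALL and the control shared the highest count, and all the intervals overlap. The members with one were 11 for B-ALL (background 22% of coding genes), 16 for T-ALL (24.6%), 11 for AML (23.3%), 13 for AUL (21.7%), 10 for M-MPAL (20.6%), 13 for T-MPAL (20.7%) and 17 for the control (23.5%). Over all libraries the rate was 46.7 per Mb of member span (39.1 to 55.3) and 70.7 per Mb in the other coding genes (70.2 to 71.2), so the intervals do not overlap and the members' rate was the lower. The members' rate was also the lower in each library taken alone, at 5.23 to 8.01 per Mb against 8.66 to 12.1. The other genes' rate lay above the members' interval in T-ALL, AML and M-MPAL and within it in the other 4 libraries. The margin was narrow in T-ALL (12.09 against an upper limit of 12.02) and in M-MPAL (8.69 against 8.62). By RefSeq span T-ALL had 26 private INDELs, AML had 18 and M-MPAL had 16, each above its count by name. Rates by span were not recomputed, so these INDEL comparisons hold only for calls assigned by name. Content of repeat tracts was not matched between the sets.

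**Figure D2:**
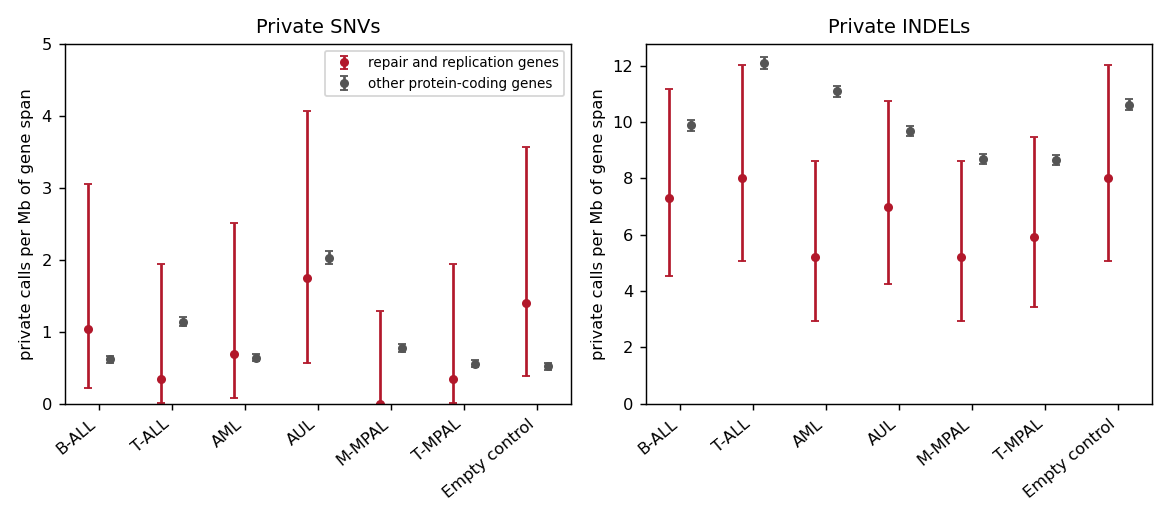
Private SNVs (left) and private INDELs (right) per Mb of gene span in each library, for the 46 repair and replication genes and for the other protein-coding genes; bars are exact Poisson 95% intervals. With calls assigned by gene name, the members' SNV intervals hold the other genes' rate in all 7 libraries. Their INDEL rate, also with calls assigned by gene name, is below that of the other genes in each library.

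The mix of changes in each library as a whole is set beside these counts. C>T changes, counted on either strand, made up 49.1% of the private SNVs that AUL had over the whole genome, and 39.1% for M-MPAL. Their share was 23.6% for B-ALL, 27.3% for T-ALL, 24.2% for AML, 28.8% for T-MPAL and 31.0% for the control. AUL had the highest share and also the most private SNVs in members, of which 3 of 5 were of the C>T class, as were the only one in T-ALL and 2 of the 4 in the control. M-MPAL, second in that share, had 0 in members. Over the whole genome AUL had 7455 private SNVs, against 2212 to 4304 in the other libraries. Members held 0.0671% of those in AUL and 0.0644% over all 7 libraries. Private INDELs in simple repeats over the genome numbered 30679 for T-ALL, 28012 for AML, 24794 for B-ALL, 24568 for the control, 23711 for AUL, 20933 for T-MPAL and 20847 for M-MPAL. T-ALL was highest in that number and AML was second, whereas among the members AML had one of the lowest INDEL counts. With 1 library per group, whether calls in the members bear on these features of the libraries was not tested.

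All 16 private SNVs were intronic, and no SNV of any library lay in an exon, splice site or UTR of a member. Only 5 of them reached a stringent level, set at a QUAL of at least 100 (the caller's score), 4 alternative reads, an alternative share of 0.2 and no segmental duplication. The level was reached by 3 of 5 in AUL, 1 of 3 in B-ALL, the only one in T-ALL and none of the 2 in AML, the 1 in T-MPAL and the 4 in the control. The share of other coding genes' private SNVs that reached it also differed widely by library, at 65.6% for AUL, 51.0% for M-MPAL, 34.2% for T-MPAL, 31.6% for T-ALL, 13.3% for the control, 10.8% for AML and 9.81% for B-ALL. Over the 16 the median alternative share was 27.4% of reads and the median QUAL 40.6. Of the 16, 9 had a QUAL under 50, 4 had all their alternative reads on 1 strand, and 4 are listed in dbSNP.

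AUL held 3 of the 5 stringent SNVs. One lay in an intron of Wrn (chromosome 8, 33352271), with 13 of 27 reads (48.1%, Clopper-Pearson interval 28.7 to 68.1) and a QUAL of 220. Pms1, a mismatch repair protein, held the others, with 15 of 35 reads (QUAL 222) at chromosome 1, 53250318, and 7 of 21 reads (QUAL 121) at 53225182. All 3 were C>T changes. The stringent SNV of T-ALL lay in Mgmt (chromosome 7, 136988029), with 10 of 23 reads (43.5%, 23.2 to 65.5, QUAL 202), and was of the same class. The stringent SNV of B-ALL lay in a simple repeat of Dntt (chromosome 19, 41051082), with 8 of 13 reads (61.5%, 31.6 to 86.1, QUAL 112), and is listed in dbSNP, as is the Pms1 call at 53225182.

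The remaining 11 had 3 to 8 alternative reads at a QUAL of 21.0 to 69. The control's 4 were in Xrcc4 (5 of 19 reads), Prkdc (7 of 30), Fancd2 (6 of 29) and Mgmt (4 of 20), none stringent. AUL's other calls were in Bard1 (3 of 19) and in Mlh3 (8 of 28), a mismatch repair protein also used in meiosis. B-ALL had one in Rev3l (4 of 12) and one in Prkdc (5 of 24), the kinase that binds broken ends. AML had one in Fancc (4 of 21) and one in Msh3 (3 of 10), and that of T-MPAL was in Xrcc4 (4 of 20). These counts are low enough that the share at each site is known only within wide limits, such as 3.38% to 39.6% for Bard1 in AUL.

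**Figure D3:**
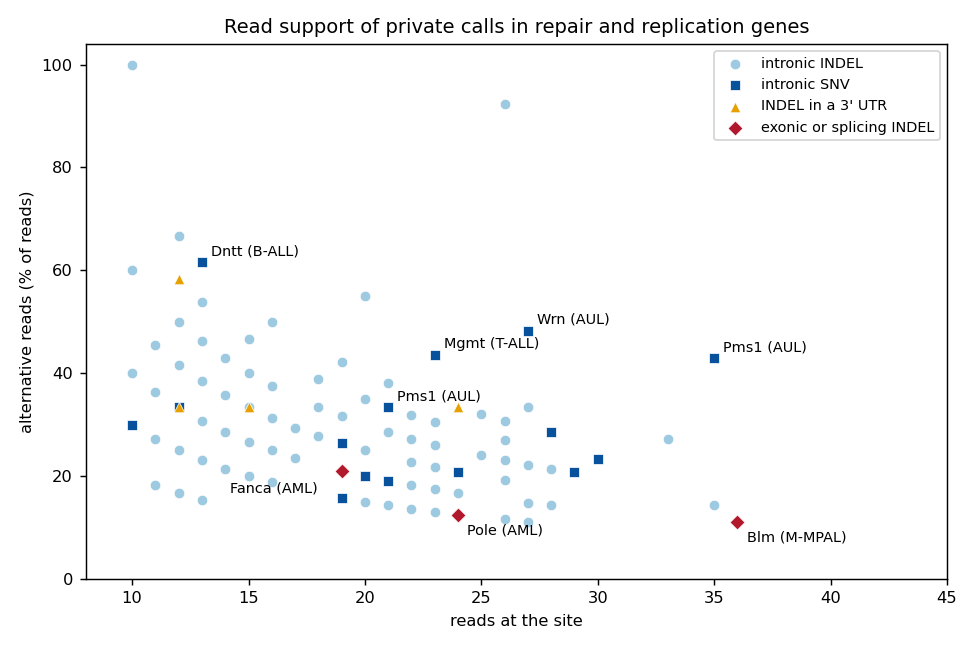
Reads at the site (horizontal axis) and share of them with the alternative allele (vertical axis, %) for the 150 private calls, by kind and place in the gene; points of equal value lie on each other. The exonic and splicing calls in Pole, Blm and Fanca sit at 11.1% to 21.1% of reads, and the labelled stringent SNVs in Wrn, Mgmt, Pms1 and Dntt at 33.3% to 61.5%.

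Private calls in exons, splice sites or UTRs numbered 7 in 6 members, where 5.32% of all coding genes had one. B-ALL had 1, AML, AUL and M-MPAL had 2 each, and T-ALL, T-MPAL and the control had 0 (upper limit 3.69 for each). Of the 7, 3 touched a protein or splice site, and each had few alternative reads.

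In AML, 1 TG unit of the 6 in exon 34 of Pole, the catalytic subunit of the leading-strand polymerase, was called lost at coding positions 4324 to 4325, annotated as the frameshift C1442fs. Only 3 of 24 reads had it (12.5%, 2.66 to 32.4), 1 on the forward and 2 on the reverse strand, at a QUAL of 22.2, where the lowest QUAL among all deposited calls was 20.0. In M-MPAL, 1 of 9 CCT units in exon 3 of Blm, the helicase lost in Bloom syndrome, was called lost at coding positions 695 to 697, which removes 1 residue in frame. It had 4 of 36 reads (11.1%, 3.11 to 26.1), 2 on each strand, at a QUAL of 24.7. AML also had a loss of 1 of 11 AG units beside a splice site of Fanca, a core protein of the Fanconi anaemia complex, with 4 of 19 reads (21.1%, 6.05 to 45.6) at a QUAL of 32.7. The intervals of Pole, Blm and Fanca all end below 50%, and none of these calls was stringent.

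The other 4 private calls were in runs of 2-base units in 3′ UTRs. In the 3′ UTR of Ung, the uracil glycosylase of base excision repair (chromosome 5, 114138747, 24 GT units), AUL had a gain of 4 bases in 7 of 12 reads (58.3%, QUAL 113), the only stringent one of the 7. At that position T-ALL and M-MPAL had a loss of 2 bases, in 7 of 21 and 5 of 16 reads. In Pms2, a mismatch repair endonuclease (chromosome 5, 143931480, 25 TG units), B-ALL had a private loss of 4 bases in 8 of 24 reads, while T-ALL (5 of 19) and M-MPAL (7 of 16) had a loss of 2. In Wrn (chromosome 8, 33234579, 22 TG units), AUL had a loss of 2 bases in 5 of 15 reads and M-MPAL a loss of 4 in 4 of 12. The Ung, Pms2 and Wrn tracts each had 2 alleles and a call in more than 1 library. Another tract, in the 3′ UTR of Chek1 (chromosome 9, 36708850, 18 AC units), had the same loss of 2 bases in AUL (4 of 25 reads), B-ALL (4 of 17) and M-MPAL (3 of 9), and so was not private. None of these 4 UTR tracts was called in AML, T-MPAL or the control.

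Lig1, the ligase that seals Okazaki fragments, held the only call annotated as splicing in each library. The annotation sets it beside both exon 22 and exon 23, and whether it lies at a working splice site was not tested. The loss of 1 C from the run between coding positions 2061 (exon 22) and 2062 (exon 23) was carried by all reads of B-ALL (22), T-ALL (36), AML (29), AUL (24), M-MPAL (22), T-MPAL (33) and the control (31). It is listed in dbSNP, and the libraries do not differ in it. Lig1 held 5 of the 11 member INDELs that were called in all 7 libraries, and the others were in Dntt, Prkdc, Pole, Xrcc1 and Xrcc4. Of the 11, 10 changed a single base and had the alternative allele in all reads of all libraries. The exception was a loss of 2 bases in Xrcc4, called with 93.3% to 100% of reads alternative. At that position M-MPAL and T-ALL also had a call of a loss of 4 bases. Both alleles were listed with the same counts, 21 of 21 reads in M-MPAL and 20 of 20 in T-ALL. These shares therefore do not separate the 2 alleles.

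One of these Lig1 calls was also the only call in the promoter windows, which run from 250 bases before to 50 after a start and were given by RefSeq (GRCm38.p6) for 37 members. It lies 16 bases before a Lig1 start (the deposited tables place it in an intron of a longer transcript), had 24 to 37 reads in the 7 libraries with the alternative allele in all, and is listed in dbSNP. The window around it is shown because it is the single promoter change in the set; the capital marks the C at which the loss of 1 C was called.
Lig1 promoter, chr7:13278798-13278827, plus strand: cgctactcgcaggCccccgcccttgctcgt

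INDELs in the members were mostly changes in the length of 2-base runs. A 2-base unit was changed in 284 of the 321 distinct INDELs (88.5%), and by class, with both strands and both phases joined, 199 were AC, 52 AG and 32 AT. The median reference tract was 36 bases. At 58 of 250 positions (23.2%) more than 1 allele was called, up to 4 at a position of Pms1 and one of Exo1. At 1 position of Polq, the polymerase of theta-mediated end joining (chromosome 16, 37056478, 22 GT units), all 7 libraries had an INDEL call, with 3 alleles among them.

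Of the 134 private INDELs, 98 were deletions (73.1%, against 71.8% in the other coding genes) and 110 lay in simple repeats (82.1% against 85.2%). At 56 (41.8% against 46.1%) another library had a different INDEL at the same position. Median depth was 16 reads with 5 alternative reads, the median alternative share was 27.3% against 28.6%, and 5 of the 134 reached the stringent level, where 6.63% of those in other genes did.

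The 5 stringent private INDELs were in 5 libraries. In B-ALL an intronic run of 11 AAGAG units in Mgmt (chromosome 7, 137034099) had lost 5 bases in all 10 reads (interval 69.2% to 100%, QUAL 152), at an allele listed in dbSNP. In T-ALL an intronic run of 21 GT units in Pms1 (chromosome 1, 53217330) had gained 2 bases in 11 of 20 reads (QUAL 192), at a position with INDEL calls in 4 libraries. In T-MPAL an intronic run of 18 AC units in Brca1 (chromosome 11, 101545630), the central protein of homologous recombination, had lost 2 bases in 10 of 23 reads (43.5%, 23.2 to 65.5, QUAL 116). In the control the intronic tract of Bard1, the obligate partner of Brca1, had lost 2 bases in 9 of 27 reads (33.3%, 16.5 to 54.0, QUAL 100). The Ung call of AUL was the fifth. With the SNVs, 10 private calls in 7 members were stringent, where 17.1% of all coding genes had such a call, and the control had 1 of the 10.

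The genes with the most private calls showed several alleles of one tract in different libraries. Xrcc4 had 6 private calls in T-ALL, 4 in B-ALL, 3 in AML and in AUL, 2 in the control, 1 in T-MPAL and 0 in M-MPAL. Its position 89900673 on chromosome 13 (22 AC units) had 3 private alleles, a gain of 2 bases in AML (6 of 13 reads), a loss of 2 in B-ALL (5 of 15) and a loss of 4 in AUL (5 of 15). T-ALL had a gain of 1 A in a run of 12 of them in 24 of 26 Xrcc4 reads (92.3%, 74.9 to 99.1), outside annotated repeats, but at a QUAL of 29.7. Mgmt had 3 private calls in B-ALL, T-MPAL and the control, 2 in T-ALL, AML and AUL and 1 in M-MPAL, at 17.4% to 100% of reads. Wrn had 3 in AUL and M-MPAL, 2 in B-ALL and AML, 1 in T-ALL and 0 in T-MPAL and the control. For Ercc4, a subunit of the nuclease that cuts on the 5′ side of bulky lesions, 3 private alleles lay at 1 position (chromosome 16, 13122286), in the control (7 of 18 reads), T-ALL (5 of 15) and T-MPAL (4 of 10).

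Most alleles were called in few libraries. Of the member INDELs 182 were called in 1 library, 74 in 2 and 11 in all 7, and of the SNVs 27 were called in 1 and 2 in all 7. Of the INDELs called in exactly 2 libraries, 5 were in both MPAL fractions, while the other pairs shared 1 to 8. The most, 8, were shared by AML and the control. B-ALL and T-ALL shared 6, as did AUL and T-ALL, B-ALL and M-MPAL, and M-MPAL and T-ALL. The number for the 2 MPAL fractions lay within the range of the other pairs. Of the 11 SNVs in more than 1 library, those of Brca1, Blm, Prkdc and Nbn that follow were chosen after their values were seen.

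An intronic SNV of Brca1 (chromosome 11, 101536977) had alternative reads in 27 of 28 in B-ALL, 23 of 26 in AML, 13 of 28 in T-ALL, 10 of 29 in AUL and 9 of 17 in the control, and no call in either MPAL fraction. B-ALL (96.4%, 81.7 to 99.9) and AML (88.5%, 69.8 to 97.6) had most reads alternative, whereas T-ALL (46.4%, 27.5 to 66.1), AUL (34.5%, 17.9 to 54.3) and the control (52.9%, 27.8 to 77.0) had intervals that include 50%. The intervals of B-ALL and AML lie above those of T-ALL and AUL, while that of AML overlaps the control's. Each of the 5 libraries had alternative reads on both strands. This call is outside annotated repeats and not in dbSNP, and it was present in the control.

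An intronic SNV of Blm (chromosome 7, 80480254) had 8 of 21 alternative reads in AML, 3 of 17 in AUL and 4 of 18 in T-MPAL, all on the reverse strand. In Prkdc 3 SNVs lay within 254 bases of 1 long terminal repeat (LTR) element (chromosome 16, 15744580 to 15744833), at 33 to 60 reads. The first was called in AML, AUL, T-MPAL and the control at 25% to 35.3% of reads. The second was called in all libraries but the control at 21.7% to 28.2%, and the third in both MPAL fractions at 34.3% and 30.8%. All shares in this element were 35.3% or lower, with intervals that reach above 50% for T-MPAL at the first and M-MPAL at the third. All alternative reads at the first were on the forward strand and all at the third on the reverse strand, and at the second the reverse strand had 3 of 9 in T-ALL and 0 or 1 in each other library with the call. Nbn, a subunit of the break-sensing complex, had an SNV in a simple repeat (chromosome 4, 15976364), again with all alternative reads on the reverse strand. This SNV was in all reads of B-ALL (8), T-ALL (8), AML (9), AUL (8) and the control (14), with no call in the MPAL fractions.

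**Figure D4:**
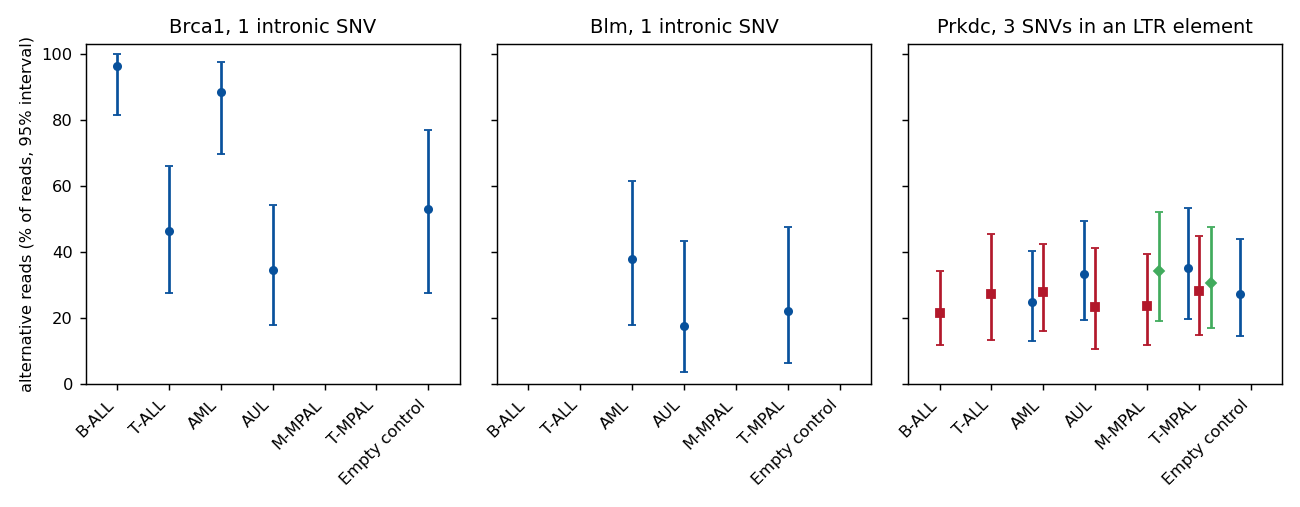
Share of reads with the alternative allele (%, with Clopper-Pearson 95% intervals) at shared intronic SNVs of Brca1, Blm and Prkdc in each library that had the call; in the Prkdc panel circles, squares and diamonds are the SNVs at 15744580, 15744660 and 15744833. Brca1 is at 96.4% and 88.5% in B-ALL and AML and at 34.5% to 52.9% in T-ALL, AUL and the control, while the Prkdc shares all lie between 21.7% and 35.3%.

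Copy number calls, in which 2 copies are normal, named 6 members. The members in calls were 4 for B-ALL (background 5.86% of coding genes), 3 for AML (2.92%), 1 for T-ALL (0.236%), 1 for M-MPAL (7.1%), 1 for T-MPAL (3.95%) and 0 for the control (0.305%). The AUL copy number table ends within a line on chromosome 2 and was left out.

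The T-ALL call named a single coding gene. It was a loss to 1 copy of 90 kb (chromosome 1, 70988001 to 71078000) over Bard1 (71027535 to 71103141, minus strand), the partner with which Brca1 forms a ubiquitin ligase. It covered 50.5 kb or 66.7% of the gene, the part with its 3′ end, and left 25.1 kb at the 5′ end outside. In the lost stretch T-ALL had 4 SNV or INDEL calls at a median depth of 12 reads, where the other 6 libraries had 2 to 6 calls at 15 to 20 reads. None of the 4 had 90% or more alternative reads, and the one within Bard1, in a run of 19 AC units, had 3 of 9. No other library had a copy number call on Bard1, whose INDELs were the most numerous in the control, with 3 private ones.

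B-ALL had a loss to 1 copy of 15.2 Mb on chromosome 19 (37842001 to 53044000) over 147 coding genes, with Dntt whole inside it. In the lost stretch the median depth at B-ALL calls was 10 reads, against 14 to 16 in the other 6 libraries. Of the 600 B-ALL calls there, 163 had 90% or more alternative reads. In the other libraries this ranged from 97 of 718 in the control to 263 of 1003 in T-ALL. The median alternative share was 42.9% in B-ALL and 33.3% to 38.5% in the others. Dntt itself had 4 calls in B-ALL, with alternative reads in 21 of 21, 6 of 12, 3 of 12 and 8 of 13. The last 3 also held reads without the called allele, and each of these 3 lies in a simple repeat. The calls with 6 of 12 and 3 of 12 are in runs of 22 CA and 23 AC units. Whether the reads without the called allele came from another copy was not tested. The allele in all 21 reads was called in all reads of the other libraries too.

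On chromosome 16, B-ALL and AML each had calls of 3 copies over Ercc4, Prkdc and Polq. In B-ALL the calls were 3.40 Mb over Ercc4, 0.996 Mb over Polq and 2 adjoining calls over Prkdc, which held 26.6 kb (13.0%) and 178.2 kb (87.0%) of the gene. In AML they were 1.61 Mb over Ercc4, 2.10 Mb over Prkdc and 0.679 Mb over Polq, each with the whole gene inside. Xrcc6, the smaller subunit of the Ku ring that binds DNA ends, lay whole inside calls of 3 copies on chromosome 15 in both MPAL fractions, the M-MPAL call of 1.35 Mb and the T-MPAL call of 0.799 Mb, which end at the same position, 82063000. Among SNV and INDEL calls Xrcc6 had 1, a loss of 4 bases in T-ALL (7 of 20 reads), so no share of reads under its name could be set beside the gains.

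**Figure D5:**
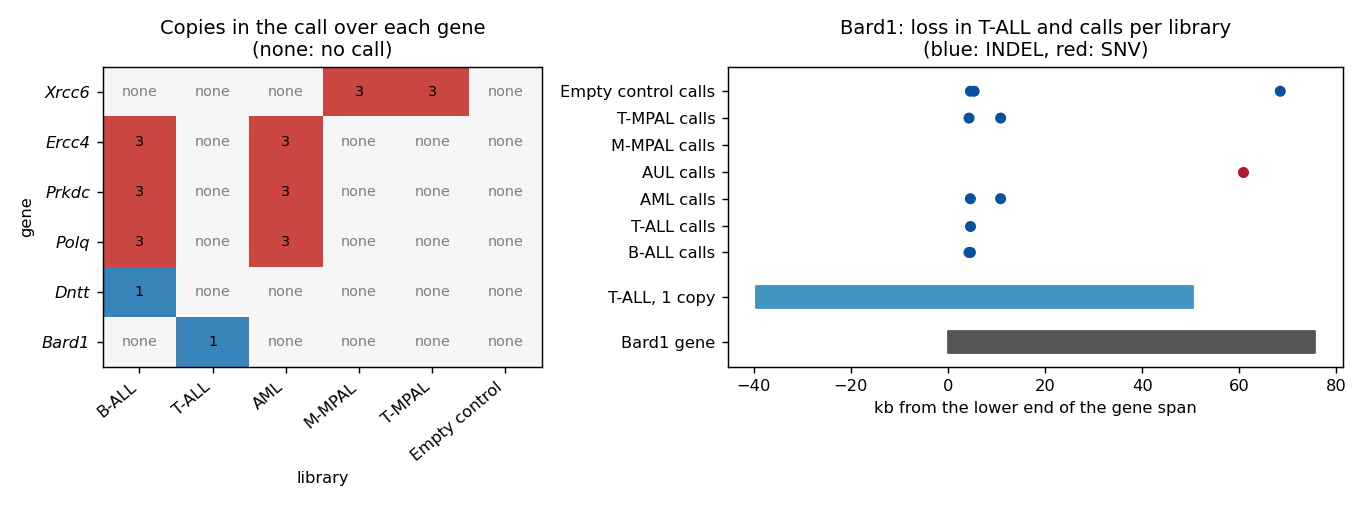
Left: copies in the deposited copy number call over each of the 6 members named in one, for the 6 libraries with a complete table. Right: the Bard1 gene, the 90 kb T-ALL loss to 1 copy and the SNV and INDEL calls of each library in the gene, by distance in kb from the lower end of the gene span; the loss covers the lower 50.5 kb of the gene.

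Of 69 other genes of the same pathways, 52 had a call and 43 a private call, against 60.9% and 51.4% of all coding genes. They had 190 private calls (10 SNVs and 180 INDELs), or 70.7 per Mb of span, against 52.3 per Mb in the 46 members and 77.0 in the other coding genes. By library their private SNVs numbered 1 in B-ALL, T-ALL and AML, 5 in AUL, 2 in T-MPAL and 0 in M-MPAL and the control. The intervals of these counts are as wide as those above. AUL had the most here and also in coding genes outside the members, with 2087 against 532 to 1172 in the other libraries. Of their private calls 4 lay in UTRs and none in an exon or at a splice site, and one was an SNV in the 3′ UTR of Pcna, the sliding clamp, in B-ALL (5 of 26 reads, QUAL 53). Copy number calls named 7 of these genes in B-ALL (background 5.86% of all coding genes) and 3 in AML (2.92%). They named 2 in M-MPAL (7.1%), 2 in T-MPAL (3.95%) and none in T-ALL (0.236%) or the control (0.305%).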

How the data were processed

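Genomic DNA was sequenced as 150 bp read pairs from 350 bp fragments with 30x coverage planned, per the labels' protocols. Reads were mapped with BWA to mm10, per the submitters' processing notes; the sources used here do not give versions or filters. SNV and INDEL tables deposited by the authors were called with samtools and annotated with ANNOVAR and dbSNP, and copy number was called with FREEC, per the file headers. The deposited QUAL is the caller's score, and all deposited calls had passed the authors' filter. Median depth was 43 to 53 reads at SNVs and 18 to 22 at INDELs called in all 7 libraries.

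Members, gene lists and the rule for named genes (members with an exonic, splicing or UTR call, a stringent private call or a copy number call, and the 3 with the most private calls) were chosen with earlier results of these data known. Chromosomes 1 to 19 and X were used. Counts, exact Poisson intervals and Clopper-Pearson intervals were computed in Python 3.11.15 with pandas 2.3.3 and scipy 1.17.1, and checked on simulated data. Gene spans came from RefSeq and matched 85.7% of the tables' gene names. Alternatives were other depth minimums, the stringent set, calls outside repeats, a partner library ignored (B-ALL and AML for each other, and the MPAL fractions for each other), whole-gene or 50 kb copy number calls and, added after the data were seen, RefSeq spans in place of names and positions called in 1 library. The 6 samples of N-Myc integration sites were not analysed here.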

Additional observations from a re-analysis of the deposited data

How the results depend on the processing

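No paired analysis was possible because each group has 1 library. Private SNV counts moved under several settings. With a minimum of 5 reads T-ALL had 2 and AML had 4, and with 20 reads B-ALL and AML had 1 each. In the stringent set B-ALL had 1, AUL had 3, and AML, T-MPAL and the control had 0. Outside annotated repeats B-ALL and T-MPAL had 0, and AML and the control had 1. Where a partner library was not asked to lack the call, M-MPAL had 1 and T-MPAL had 2, and B-ALL and AML, partners of each other, kept 3 and 2. Private INDEL counts with 20 reads were 6 for B-ALL, AML and T-MPAL, 11 for T-ALL, 3 for AUL, 7 for M-MPAL and 8 for the control. In the stringent set B-ALL, T-ALL, AUL, T-MPAL and the control had 1, and AML and M-MPAL had 0. Outside repeats B-ALL, T-ALL, AML and the control had 1, and AUL, M-MPAL and T-MPAL had 0. Counting only positions called in no other library, an alternative chosen after seeing the data, left 11 for B-ALL, 12 for T-ALL and AUL, 7 for M-MPAL, 10 for T-MPAL and 15 for the control. Exonic, splicing and UTR calls with 20 reads were 1 for AML and M-MPAL and 0 for AUL. In the stringent set AUL had 1, and B-ALL, AML and M-MPAL had 0. Outside repeats AML had 1, and B-ALL, AUL and M-MPAL had 0. At positions called in no other library M-MPAL had 1, and B-ALL and AUL had 0. Each stricter setting admits fewer calls by its construction. Asking for a whole gene span inside 1 copy number call removed Bard1, leaving 0 for T-ALL. The other settings, RefSeq spans in place of gene names among them, kept each count within 1.5 times of that reported. With RefSeq spans the control had 6 private SNVs in place of 4, and rates per Mb were not recomputed. Copy number in AUL was not run, since its table is incomplete. Depths of 10 to 36 reads at the private sites leave rare alleles undetectable.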
